A study of Mus musculus with 24 samples.

Results

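P19 embryonal carcinoma cells, a mouse teratocarcinoma line that resembles the early embryo and can be made to differentiate with retinoids, changed their transcripts widely between 24 and 48 h of exposure to the 1 µM retinoids. The step was read from 4 of the 24 Affymetrix Mouse Gene 1.0 ST arrays of the series: 1 at 48 h and 1 at 24 h of all-trans retinoic acid (ATRA, 1 µM), and 1 at 48 h and 1 at 24 h of BMS753 (1 µM), an agonist of the retinoic acid receptor RARα. The 48 h array of each agent was set against its own 24 h array, for every one of the 19938 named genes. The arrays at 2, 6 and 72 h of both agents, the arrays of the RARβ agonist BMS641 and the RARγ agonist BMS961 (0.1 µM each, 1 array at each of the same 5 times) and 4 arrays of EtOH (ethanol, the control) served for reference and for the estimate of error. All cells grew as monolayers on gelatine-coated plates. No agent and time has a second array, the EtOH arrays carry no time, and the labels do not say which arrays come from separate cultures, so the p-values measure only the spread between these arrays, which may be technical.

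Retinoic acid is carried into the nucleus by CRABP2 and binds heterodimers of a retinoic acid receptor (RAR) and a retinoid X receptor (RXR) that sit on DNA and switch from repression to activation of nearby genes. Direct targets include Rarb, the Cyp26 enzymes that degrade retinoic acid, and the 3′ genes of the Hox clusters. In embryonal carcinoma cells the pluripotency network around Pou5f1, which encodes OCT4, is shut down as differentiation proceeds, and neural, endodermal or muscle programmes can follow depending on dose and culture.

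The label of the cells was checked with their defining transcripts. In EtOH, Pou5f1 measured 12.90 ± 0.06 on the log2 intensity scale (SD, n = 4), Utf1 11.81 ± 0.06 and Tdgf1 11.53 ± 0.09, and Sox2 measured 11.53 ± 0.02. Zfp42, a marker of naive embryonic stem cells, measured 4.83 ± 0.07 in EtOH and between 4.81 and 4.99 in the 4 arrays of the step. Between any pair of EtOH arrays, the gene-wise differences had a standard deviation of 0.0941 to 0.143. The difference between 48 and 24 h had a standard deviation of 0.454 with ATRA and 0.339 with BMS753, against 0.101 with BMS641 and 0.114 with BMS961. The BMS753 array at 48 h differed from the ATRA array at 24 h by a standard deviation of 0.286, less than from the ATRA array at 48 h, where it was 0.393.

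Of 19938 genes, 1632 were called higher and 1776 lower at 48 h than at 24 h (limma, Benjamini-Hochberg adjusted p under 0.05). That is 17.1% of all genes, 8.19% higher and 8.91% lower, and 480 of these genes changed at least 2-fold, 230 of them higher and 250 lower. The median change over all genes was 0.00 on the log2 scale. Both 48 h arrays lay above both 24 h arrays in 4230 genes (21.2%) and below both in 4053 (20.3%), and 106 genes (0.532%) were at least 2-fold higher and 116 (0.582%) at least 2-fold lower at 48 h with each agent. The calls rest on a spread borrowed from all 24 arrays: a fit of the 4 arrays alone called 0 genes at the adjusted threshold, with 2740 at an unadjusted p under 0.05. The spread of the EtOH arrays alone called 5640 genes, and the 1 µM and EtOH arrays without the 0.1 µM agents called 2068. Without the BMS753 pair the count was 5951, and without the ATRA pair 3589.

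Across genes, the ATRA and BMS753 steps had a Pearson correlation of 0.529 and a Spearman correlation of 0.406, over 19938 genes that are not independent of each other. The pairs share no array. Of the 3408 called genes, 3397 had steps of 1 sign, and in 2447 of these the step was larger in size with ATRA. Over all genes the ATRA step also had the larger standard deviation, 0.454 against 0.339 with BMS753. How often the ATRA step was the larger over all genes was not counted. The call was made on the mean of both steps, which favours genes whose steps share a sign.

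**Figure D1:**
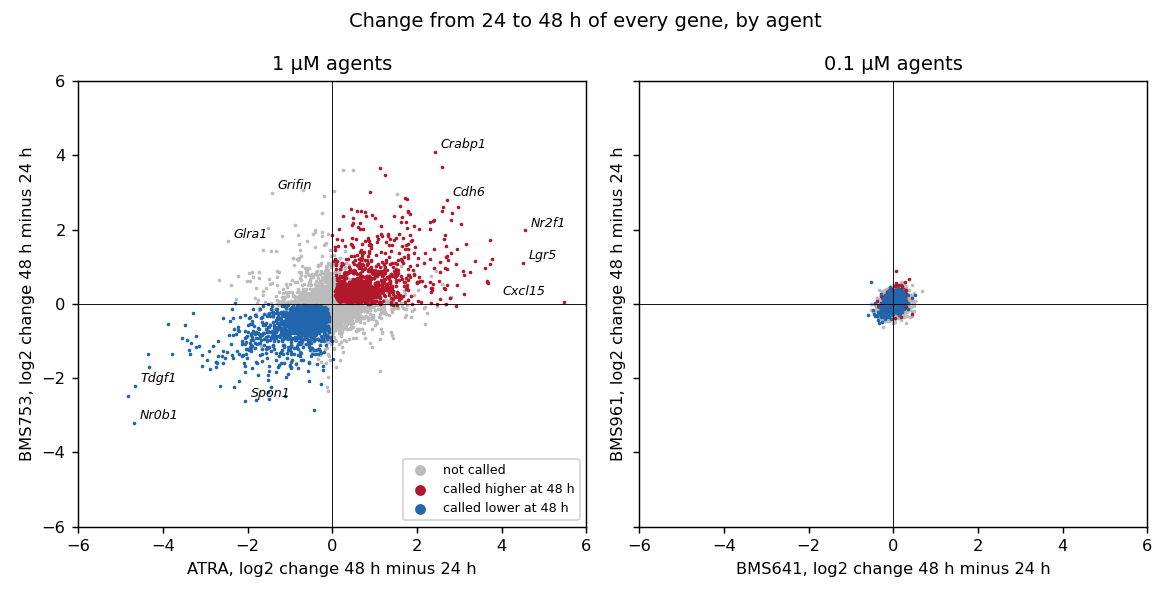
Change of each of 19938 genes between 24 and 48 h (log2, 48 h minus 24 h), on the left with ATRA (x axis) against BMS753 (y axis) and on the right with BMS641 (x axis) against BMS961 (y axis), each point 1 gene, coloured by its call in the 1 µM step. The cloud spans several log2 units with the 1 µM agents, while no gene changed 2-fold with either 0.1 µM agent.

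Genes of the pluripotency network fell more often than they rose. Of 35 measured genes of the list, 16 fell and 2 rose (51.4% called, against 17.1% of all genes, and 8.91% of all genes lower), with a median of -0.35 log2, against 0.00 for all genes. Pou5f1, the OCT4 gene, measured 8.63 (ATRA) and 11.44 (BMS753) at 48 h, against 12.41 (ATRA) and 12.79 (BMS753) at 24 h, so its step was -2.57 ± 0.45 log2 (SE of the fit, 2 pairs of arrays), a 5.94-fold fall with adjusted p = 0.00168. Both 48 h arrays lay below both 24 h arrays, and the 24 h arrays were still within 0.5 log2 units of the EtOH mean. Nr0b1, which encodes the orphan receptor DAX1 of the pluripotency network, fell furthest. It measured 6.77 (ATRA) and 8.85 (BMS753) at 48 h, against 11.45 (ATRA) and 12.05 (BMS753) at 24 h, a step of -3.94 ± 0.27 (15.4-fold, adjusted p = 1.77e-06). At 24 h it had been above its EtOH mean of 10.74 with both agents, and also with BMS641 (11.75) and BMS961 (11.52).

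Tdgf1 encodes Cripto, a co-receptor of Nodal, and measured 5.00 (ATRA) and 9.19 (BMS753) at 48 h, against 9.66 (ATRA) and 11.39 (BMS753) at 24 h. Its step was -3.43 ± 0.54 (10.8-fold, adjusted p = 0.000751), and the ATRA array at 48 h was the lowest of the 4 by over 4 log2 units. Utf1, a chromatin factor of undifferentiated cells, measured 6.24 (ATRA) and 10.26 (BMS753) at 48 h, against 10.61 (ATRA) and 11.62 (BMS753) at 24 h, and fell by 2.86 ± 0.44 on the log2 scale. Nanog, the homeobox factor, measured 5.46 (ATRA) and 8.95 (BMS753) at 48 h, against 8.67 (ATRA) and 10.11 (BMS753) at 24 h. It fell by 2.19 ± 0.35 (adjusted p = 0.000941), although its BMS753 array at 48 h was above its ATRA array at 24 h, so the times overlapped. L1td1, an RNA-binding protein of pluripotent cells, fell by 2.16 ± 0.23 and the growth factor gene Fgf4 by 1.94 ± 0.23 on the log2 scale. Smaller falls were those of Otx2 (-1.56), the de novo DNA methyltransferase gene Dnmt3b (-1.44), Foxd3 (-1.07), Phc1 (-1.01), Zscan10 (-0.96), Epcam (-0.79), Tfcp2l1 (-0.66), Dnmt3l (-0.37) and Dppa4 (-0.31, with -0.57 on its other probe set). The 2 that rose were Mycn, by 0.83 ± 0.11, and Tbx3, by 0.58 ± 0.17.

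Sox2, which encodes the partner of OCT4, was not called. It measured 11.60 (ATRA) and 11.74 (BMS753) at 48 h, against 11.62 (ATRA) and 11.63 (BMS753) at 24 h, a step of 0.05 ± 0.22 (adjusted p = 0.929). OCT4 and SOX2 bind composite elements together, and the Nanog promoter is shown because it holds the letters of one. The letters CATTGT, any base and then ATGNAAA, searched on both strands, were found in 1 of the 26 pluripotency genes with a promoter sequence (3.85%), Nanog, against 7 of 27025 mouse genes (0.0259%). A gene was counted if any of its promoters of 300 bases held the letters, and 9 of all 32851 promoters did (0.0274%). The window is chr6:122707239-122707538 (GRCm38.p6, plus strand, from 250 bases before to 50 after the start of the gene, RefSeq), and capitals mark the match, which reads on the opposite strand. A match is a description of letters and not evidence of binding. The share of the pluripotency list rests on 1 gene and is no test.
Nanog: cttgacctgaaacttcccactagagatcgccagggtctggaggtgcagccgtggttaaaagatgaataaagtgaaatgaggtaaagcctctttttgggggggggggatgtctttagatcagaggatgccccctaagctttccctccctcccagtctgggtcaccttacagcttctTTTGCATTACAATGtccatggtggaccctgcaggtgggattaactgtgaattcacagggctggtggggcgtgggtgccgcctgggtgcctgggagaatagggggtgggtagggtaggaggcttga

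**Figure D2:**
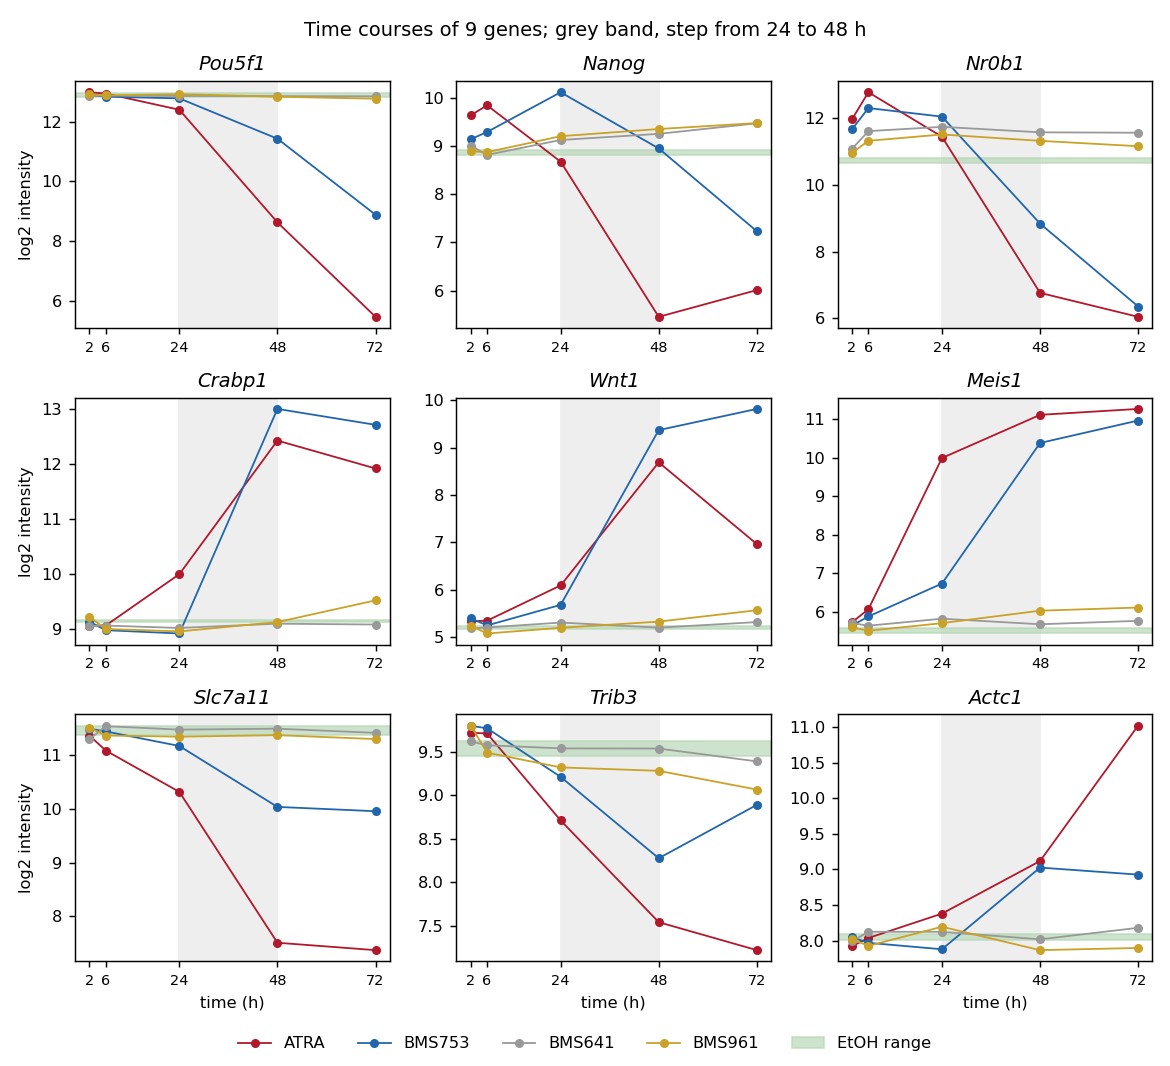
Log2 intensity (y axis) of 9 genes by hours of treatment (x axis), 1 line per agent with 1 array per point, the EtOH range of 4 arrays as a green band and the step from 24 to 48 h in grey. With ATRA and BMS753, Pou5f1, Nanog, Nr0b1, Slc7a11 and Trib3 were lower and Crabp1, Wnt1 and Meis1 higher at 48 h than at 24 h, and the rise of Actc1 missed the threshold.

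In the list of the Nodal pathway and mesendoderm, 4 of 16 genes were called lower and 0 higher (25% called, against 17.1% of all genes), with a list median of -0.27. The Nodal antagonist gene Lefty1 measured 7.92 (ATRA) and 10.99 (BMS753) at 48 h, against 11.79 (ATRA) and 11.53 (BMS753) at 24 h, a step of -2.20 ± 0.49 (adjusted p = 0.00777). Both 24 h arrays stood above the EtOH mean of 10.40. Nodal itself fell by 1.39 ± 0.22, the T-box gene Eomes by 1.39 ± 0.20, and Gdf3, a TGFβ-family ligand that acts with Nodal, by 1.20 ± 0.16. Lefty2 measured 5.60 (ATRA) and 6.77 (BMS753) at 48 h, against 7.32 (ATRA) and 5.92 (BMS753) at 24 h, and was not called in the mean of both agents.

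Genes of the retinoid pathway itself changed in both directions. Of 23 genes, 7 rose and 3 fell (43.5%, against 17.1% of all genes), with a median of 0.08. Crabp1, the cytoplasmic retinoic acid carrier, measured 12.43 (ATRA) and 13.01 (BMS753) at 48 h, against 9.99 (ATRA) and 8.91 (BMS753) at 24 h. Its step was 3.27 ± 0.30 (9.62-fold, adjusted p = 1.63e-05), and its 24 h level with BMS753 was near the EtOH mean of 9.15. Stra6, the receptor for retinol-binding protein, measured 10.85 (ATRA) and 9.56 (BMS753) at 48 h, against 8.81 (ATRA) and 7.54 (BMS753) at 24 h, and rose by 2.03 ± 0.17. Rdh10, which makes retinaldehyde from retinol, rose by 1.76 ± 0.18, and the retinaldehyde dehydrogenase genes Aldh1a2 and Aldh1a1 rose by 1.08 and 0.60. Ripply3 rose by 1.46 and the receptor gene Rxra by 0.70.

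Among the other receptors, Rxrg fell by 2.17 ± 0.31, Rarg by 0.98 ± 0.12 and Rara by 0.42 ± 0.06 on the log2 scale. Rarb, a direct target, measured 11.66 (ATRA) and 11.24 (BMS753) at 48 h, against 11.62 (ATRA) and 11.00 (BMS753) at 24 h, over 4 log2 units above its EtOH mean of 6.97 at both times. Its step was 0.14 ± 0.10 (adjusted p = 0.451). The degrading enzyme Cyp26a1 measured 10.21 (ATRA) and 8.91 (BMS753) at 48 h, against 11.00 (ATRA) and 9.63 (BMS753) at 24 h (adjusted p = 0.277). Crabp2 measured 12.28 (ATRA) and 11.86 (BMS753) at 48 h, against 11.80 (ATRA) and 8.26 (BMS753) at 24 h. Its mean step of 2.04 ± 0.67 missed the threshold (adjusted p = 0.0538), and the BMS753 pair differed more than the ATRA pair. It passed in 6 of 18 alternatives. They include leaving out the dimmest genes (adjusted p = 0.0438) or the ATRA 72 h array (0.00334, chosen after seeing the data), and 1 agent offset over all times (0.0485). It also passed where EtOH arrays alone set the error, and without either agent's pair, which leaves 1 array a side. Among those it missed were the 4 arrays alone (adjusted p = 0.364), the 1 µM and EtOH arrays only (0.142) and robust moderation (0.1).

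Hox genes encode the homeodomain factors of anterior-posterior position. In paralogue groups 1 to 5, 8 of 14 genes rose and 0 fell (57.1%, against 8.19% of all genes higher), with a median of 0.91. Hoxa2 measured 9.22 (ATRA) and 9.02 (BMS753) at 48 h, against 7.20 (ATRA) and 7.79 (BMS753) at 24 h, a step of 1.63 ± 0.19 (adjusted p = 8.54e-05). Hoxb2 rose by 1.62, Hoxa5 by 1.44, Hoxb5 by 1.31, Hoxd4 by 1.30, Hoxb3 by 0.91, Hoxa3 by 0.90 and Hoxd3 by 0.84. Hoxb1, the earliest of the cluster, measured 10.07 (ATRA) and 10.35 (BMS753) at 48 h, against 10.86 (ATRA) and 8.74 (BMS753) at 24 h, so the agents went opposite ways and the mean of 0.41 ± 0.48 was not called. In groups 6 to 13, 6 of 23 rose and 1 fell (30.4% called, against 17.1% of all genes), with a median of 0.09. Hoxc6 rose by 2.12 ± 0.45, Hoxd8 by 0.87, Hoxb9 by 0.77, Hoxb6 by 0.65, Hoxb7 by 0.47 and Hoxa7 by 0.40, and Hoxb13 fell by 0.62.

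The TALE homeodomain proteins are partners of Hox factors on DNA. Of 13 TALE and Cdx genes, 5 rose and 1 fell (46.15% called, against 17.1% of all genes). Meis1 measured 11.12 (ATRA) and 10.39 (BMS753) at 48 h, against 10.00 (ATRA) and 6.73 (BMS753) at 24 h, with an EtOH mean of 5.51. Its step was 2.39 ± 0.46 (5.24-fold, adjusted p = 0.00295). ATRA cells had already reached 10.00 by 24 h, and the BMS753 pair differed more. The 1 µM step minus the 0.1 µM step was 2.30 ± 0.65 for Meis1, which missed the threshold (limma, adjusted p = 0.0554). At 24 and 48 h Meis1 measured 5.70 and 6.03 with BMS961, and 5.82 and 5.68 with BMS641. Meis2 rose by 0.93, Meis3 by 0.89, Pknox1 by 0.59 and Pbx3 by 0.17, and Pknox2 fell by 0.48.

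**Figure D3:**
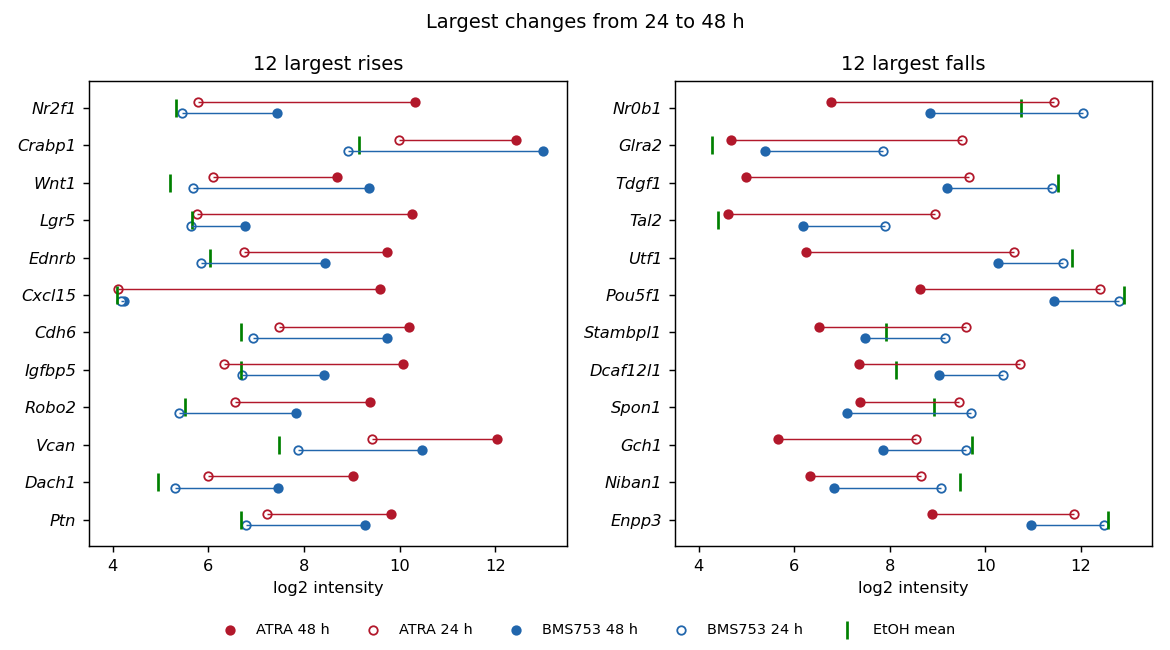
Log2 intensity (x axis) of the 12 genes with the largest called rises (left) and the 12 with the largest called falls (right), filled points for 48 h and open points for 24 h, with ATRA in red, BMS753 in blue and the mean of 4 EtOH arrays as a green bar. Cxcl15 was called in ATRA's own step and not in that of BMS753, and Glra2 and Tal2 stood above EtOH at 24 h and near it at 48 h with ATRA.

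In the neural progenitor list, 16 of 38 genes rose and 4 fell (52.6% called, against 17.1% of all genes, of which 8.19% higher and 8.91% lower), with a median of 0.32. Wnt1, a signal of the dorsal neural tube and midbrain, measured 8.69 (ATRA) and 9.37 (BMS753) at 48 h, against 6.09 (ATRA) and 5.68 (BMS753) at 24 h, a step of 3.14 ± 0.47 (8.84-fold, adjusted p = 0.000545). Pax6, a factor of neural progenitors, measured 11.38 (ATRA) and 9.11 (BMS753) at 48 h, against 8.97 (ATRA) and 6.86 (BMS753) at 24 h, and rose by 2.33 ± 0.25. The 48 h arrays were the higher for both genes with each agent. Pax3, a factor of the dorsal neural tube and neural crest, rose by 2.30 ± 0.45, Dbx1, which marks an intermediate domain of the neural tube, by 2.27 ± 0.34, and Irx3 by 2.25 ± 0.43. Further rises were those of Tshz1 (1.96), Gli3 (1.56), Irx5 (1.41), the N-cadherin gene Cdh2 (1.38), Sox9 (1.15), the nestin gene Nes (0.87), Pax7 (0.74), Prom1 (0.67), Msi1 (0.65), Irx2 (0.61) and Pax2 (0.27). The zinc-finger genes Zic2 and Zic5 each fell by 1.51, Sox3 by 0.32 and Pax8 by 0.30. The other probe set of Zic5 had a mean step of -0.30. Sox1 measured 7.95 (ATRA) and 8.24 (BMS753) at 48 h, against 7.66 (ATRA) and 7.47 (BMS753) at 24 h (adjusted p = 0.0675).

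Of 30 proneural and Notch genes, 9 rose and 1 fell (33.3%, against 17.1% of all genes). The Notch ligand gene Dll1 measured 8.87 (ATRA) and 9.02 (BMS753) at 48 h, against 7.87 (ATRA) and 6.69 (BMS753) at 24 h, and rose by 1.66 ± 0.39. Jag1 rose by 1.12, Gadd45g by 0.95, Notch1 by 0.79, the proneural gene Neurog1 by 0.51, Hes1 and Notch2 by 0.41 each, Dll4 by 0.38 and Hes3 by 0.36, and Jag2 fell by 0.57.

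Among genes of differentiated neurons, 4 of 50 rose and 5 fell, 18% against 17.1% of all genes, with a median of 0.05. Lhx1, a LIM homeobox gene of interneurons also used in mesoderm, rose by 2.31 ± 0.23, Map2, a microtubule protein of dendrites, by 0.85, Dpysl3 by 0.41 and Dpysl5 by 0.34. Ebf1 fell by 1.32, Gng3 by 0.95, L1cam by 0.84, Phox2a by 0.50 and Nefh by 0.42. Dcx, the doublecortin gene of migrating neurons, measured 7.96 (ATRA) and 5.57 (BMS753) at 48 h, against 5.80 (ATRA) and 5.68 (BMS753) at 24 h, and its mean step was not called (adjusted p = 0.194).

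Axon guidance genes, which code for secreted cues and their receptors, held 18 rises and 1 fall among 38 (50%, against 17.1% of all genes), with a median of 0.61. Robo2, a Slit receptor, measured 9.38 (ATRA) and 7.84 (BMS753) at 48 h, against 6.55 (ATRA) and 5.38 (BMS753) at 24 h, a step of 2.65 ± 0.42 (6.26-fold, adjusted p = 0.000784). The semaphorin receptor genes Nrp2 and Nrp1 rose by 1.91 ± 0.13 and 1.81 ± 0.36. Among the semaphorins, Sema3d measured 7.85 (ATRA) and 9.74 (BMS753) at 48 h, against 6.60 (ATRA) and 6.26 (BMS753) at 24 h, and rose by 2.37 ± 0.40. Sema3c rose by 1.66, Sema3a by 1.59, Sema6d by 1.27 and Sema5a by 0.68. Flrt3 rose by 1.37, Ntn1, the netrin gene, by 0.92 (-0.01 with ATRA and 1.86 with BMS753), Robo1 by 0.80, its ligand gene Slit2 by 0.79 and Plxnd1 by 0.47. Of the ephrins and their receptors, Efna5 (0.95), Efnb2 (0.86), Epha5 (0.81), Epha7 (0.79) and Efnb3 (0.50) rose and Ephb1 fell by 0.83. The other probe set of Ephb1 had a mean step of -0.25.

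**Figure D4:**
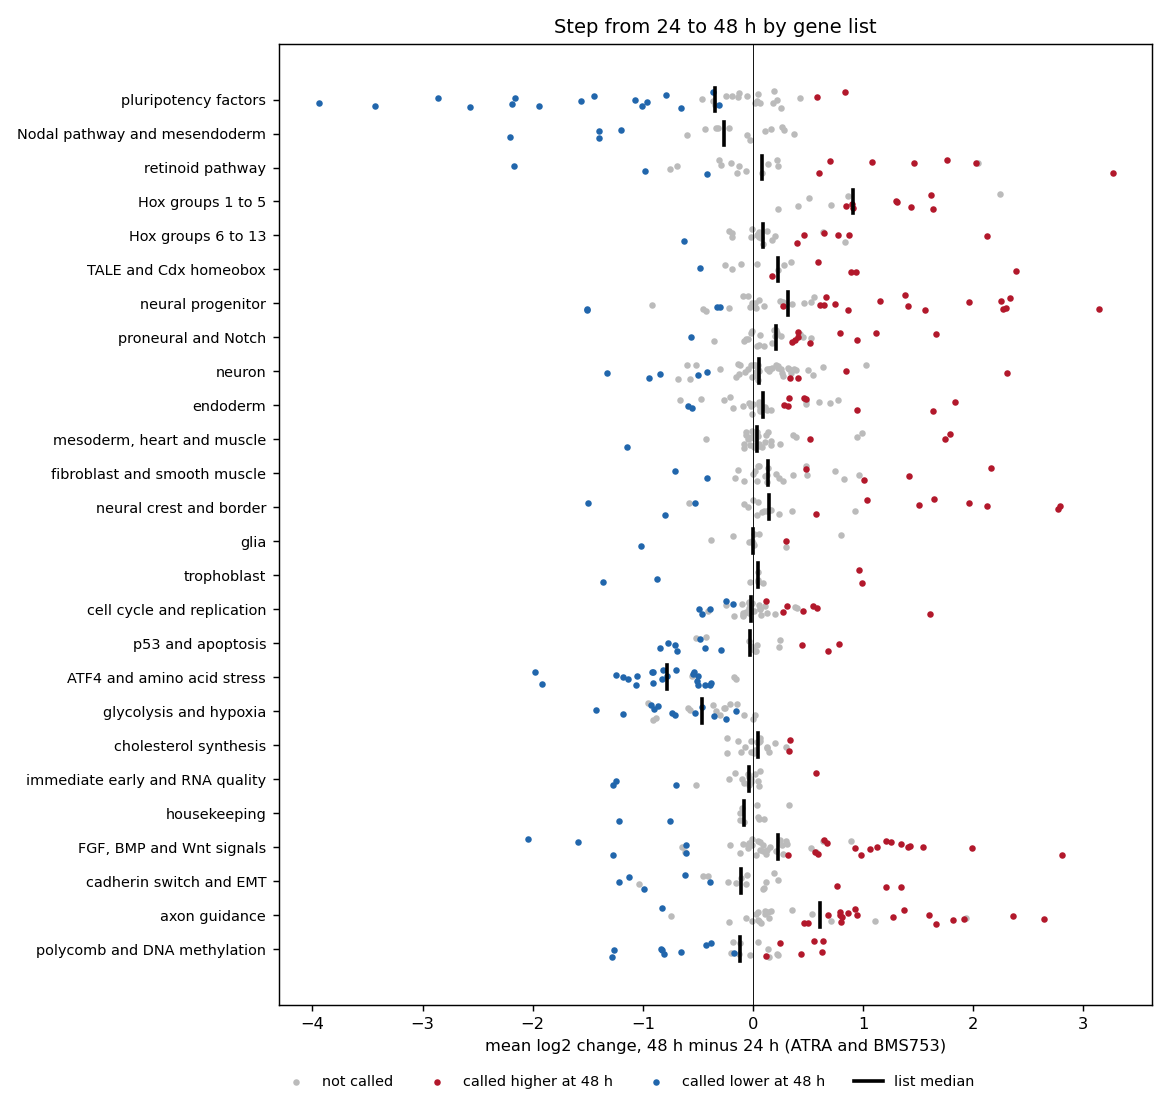
Mean change of each measured gene between 24 and 48 h over ATRA and BMS753 (x axis, log2, 48 h minus 24 h), 1 row per gene list and 1 point per gene, red for genes called higher, blue for genes called lower and a black bar for the list's median. Points of the ATF4 list lie left of 0, and those of the axon guidance list and Hox groups 1 to 5 lie mostly right of it.

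In the list of FGF, BMP and Wnt signals, 17 of 52 genes rose and 5 fell (42.3%, against 17.1% of all genes), with a median of 0.23. Bmp4, a BMP ligand listed with mesoderm, measured 9.69 (ATRA) and 9.39 (BMS753) at 48 h, against 7.74 (ATRA) and 7.84 (BMS753) at 24 h, and rose by 1.75 ± 0.10. Of the BMP targets in the list, Id3 rose by 1.99 ± 0.33, Id1 by 1.43, Id2 by 1.13 and Smad6 by 0.57, while Id4 (-0.04) and Smad7 (0.53) were not called. The ligand genes Bmp7 and Bmp2 rose by 1.25 and 0.92. On the Wnt side, Lgr5, an R-spondin receptor, measured 10.27 (ATRA) and 6.76 (BMS753) at 48 h, against 5.77 (ATRA) and 5.64 (BMS753) at 24 h, a step of 2.81 ± 0.56. The inhibitor gene Dkk1 rose by 1.55, the feedback gene Axin2 by 1.41, Fzd10 by 1.34, the ligand gene Wnt5a by 1.21, Rspo3 by 1.06, Fzd2 by 0.67 and Fzd1 by 0.59, and Fzd5 fell by 0.61.

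The FGF genes of the same list went both ways. Etv5, an ETS factor induced by FGF, measured 8.01 (ATRA) and 10.48 (BMS753) at 48 h, against 11.22 (ATRA) and 11.35 (BMS753) at 24 h, a step of -2.04 ± 0.33 (adjusted p = 0.00098). Spry4, a feedback inhibitor, fell by 1.59, Fgf15 by 1.27 and Etv4 by 0.60. Fgfr2 rose by 0.98, Fgf10 by 0.64 and Fgfr1 by 0.32. Spry1 (-0.04), Spry2 (-0.64), Fgf3 (0.16), Fgf9 (0.24), Fgf13 (-0.02), Fgf17 (0.09), Fgfr3 (0.63) and Fgfr4 (0.13) were not called.

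In the list of cadherin switch and epithelial-mesenchymal transition genes, 3 of 21 rose and 5 fell (38.1%, against 17.1% of all genes). The E-cadherin gene Cdh1 measured 9.73 (ATRA) and 10.14 (BMS753) at 48 h, against 10.81 (ATRA) and 11.04 (BMS753) at 24 h, and fell by 0.99 ± 0.06. Esrp1, an epithelial splicing factor, fell by 1.22, Cdh10 by 1.13, Ocln by 0.62 and Cdh20 by 0.39. Pcdh19 rose by 1.34, Pcdh7 by 1.21 and Zeb1, a repressor of Cdh1, by 0.76.

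Markers of other cell types that a differentiating culture can hold were counted in the same way. Among 25 neural crest and border genes, 8 rose and 3 fell (44%, against 17.1% of all genes). Cdh6, a cadherin of neural crest and kidney, measured 10.20 (ATRA) and 9.74 (BMS753) at 48 h, against 7.48 (ATRA) and 6.93 (BMS753) at 24 h, a step of 2.77 ± 0.12 (6.80-fold, adjusted p = 7.26e-08) that was close between the agents. The endothelin receptor gene Ednrb rose by 2.79 ± 0.44, Msx1 by 2.12, Ret by 1.96, Gata3 by 1.64, Cdh11 by 1.51, Msx2 by 1.04 and Ets1 by 0.57. Prrx1 fell by 1.50, Erbb3 by 0.79 and Ngfr by 0.52, and Sox10 had a step of 0.14 (adjusted p = 0.29).

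Among 32 endoderm genes, 8 rose and 2 fell (31.25% called, against 17.1% of all genes), with a median of 0.09. The 2 that fell are not named here. Lama1, a laminin chain of basement membranes, rose by 1.84 ± 0.30, the plasminogen activator gene Plat by 1.64 and the keratin genes Krt8 and Krt18 by 0.95 and 0.48, while Gata6 measured 10.08 (ATRA) and 9.08 (BMS753) at 48 h, against 10.01 (ATRA) and 9.04 (BMS753) at 24 h. In the list of mesoderm, heart and muscle, 3 of 35 rose, Meox1 by 1.78, Bmp4 and Kdr, and the desmin gene Des fell by 1.14 (11.4% called, against 17.1% of all genes). The cardiac actin gene Actc1 measured 9.12 (ATRA) and 9.03 (BMS753) at 48 h, against 8.38 (ATRA) and 7.88 (BMS753) at 24 h, with an EtOH mean of 8.05. The 48 h arrays lay above the 24 h arrays with each agent, but its step of 0.94 ± 0.31 missed the threshold (adjusted p = 0.0518). It passed in 5 of 18 alternatives. They include leaving out the dimmest genes (adjusted p = 0.0419) or the ATRA 72 h array (1.3e-05, chosen after seeing the data). It also passed where EtOH arrays alone set the error, and without either agent's pair, which leaves 1 array a side. Among those it missed were the 4 arrays alone (adjusted p = 0.141), no agent term (0.134), the 1 µM and EtOH arrays only (0.133) and robust moderation (0.0875). In fibroblast and smooth muscle genes 4 of 27 rose, Fbn2 by 2.16, Tagln by 1.42, Myl9 by 1.00 and Col1a2 by 0.48, and 2 fell (22.2%). In glia 1 of 12 rose and 1 fell (16.7%, near the 17.1% of all genes). In trophoblast 2 of 9 rose, the imprinted genes Mest (0.99) and Peg10 (0.96), and 2 fell, Cited1 (-1.36) and Ascl2 (-0.87). That is 44.4% called, against 17.1% of all genes. In bulk RNA, fewer cells of a type and less RNA per cell cannot be told apart.

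The ATF4 and amino acid stress list had the largest share of called genes among the 26 lists. The lists were chosen with earlier results of these data known, so this rank is a description. Of the 25 genes, 22 fell and 0 rose (88%, against 8.91% of all genes called lower), with a median of -0.78. ATF4 is a bZIP factor that, when amino acids are short or the endoplasmic reticulum is stressed, turns on amino acid transporters and synthesis enzymes. Slc7a11, the cystine transporter gene, measured 7.50 (ATRA) and 10.04 (BMS753) at 48 h, against 10.32 (ATRA) and 11.17 (BMS753) at 24 h, a step of -1.98 ± 0.29 (3.93-fold, adjusted p = 0.000442). Slc7a3, which carries cationic amino acids, fell by 1.92 ± 0.19, Cth, the cystathionine lyase gene, by 1.24 ± 0.20 and Psph, of serine synthesis, by 1.13 ± 0.15. Trib3, a pseudokinase induced by ATF4, measured 7.54 (ATRA) and 8.28 (BMS753) at 48 h, against 8.71 (ATRA) and 9.21 (BMS753) at 24 h, and fell by 1.05 ± 0.19. Asns, the asparagine synthetase gene, measured 11.42 (ATRA) and 12.23 (BMS753) at 48 h, against 12.61 (ATRA) and 12.68 (BMS753) at 24 h, and fell by 0.82 ± 0.11. The EtOH means were 11.49 for Slc7a11, 12.75 for Asns and 9.53 for Trib3. The others that fell ranged from Ddit4 (-1.18) to the chaperone gene Hsp90b1 (-0.38).

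Atf4 itself measured 9.24 (ATRA) and 9.57 (BMS753) at 48 h, against 9.54 (ATRA) and 9.61 (BMS753) at 24 h, a step of -0.18 ± 0.09 that was not called (adjusted p = 0.216). Chac1 (-0.55) and Atf3 (-0.15) were the others not called. These arrays measure transcripts, and ATF4 is known to be controlled largely in translation. ATF4 protein was not measured, and its part in these values was not tested.

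The promoters of 3 of the genes that fell are shown because they hold the letters of the element that ATF4 binds with C/EBP partners. The letters TGATGNAA, searched on both strands, can overlap the motif above where its free base is G, which is not so in Nanog. They were present in 9 of the 22 genes of the list with a promoter sequence (40.9%), against 1219 of 27025 mouse genes (4.51%). Over promoters, 1304 of all 32851 held them (3.97%). The 9 genes were Atf3, Trib3, Chac1, Asns, Slc7a11, Pck2, Herpud1, Vldlr and Nupr1. Of these 9, 7 fell, against 22 of all 25 genes of the list, so the letters did not mark the genes that fell. Each window runs from 250 bases before to 50 after the gene's start (GRCm38.p6, minus strand, RefSeq), at chr3:50443564-50443863 for Slc7a11, chr2:152344011-152344310 for Trib3 and chr6:7693160-7693459 for Asns. Capitals mark the matches, of which Slc7a11 has 2. The list was built around known ATF4 targets, and also holds Atf4 itself and chaperone genes such as Hsp90b1. Its share describes the list and is no test.
Slc7a11: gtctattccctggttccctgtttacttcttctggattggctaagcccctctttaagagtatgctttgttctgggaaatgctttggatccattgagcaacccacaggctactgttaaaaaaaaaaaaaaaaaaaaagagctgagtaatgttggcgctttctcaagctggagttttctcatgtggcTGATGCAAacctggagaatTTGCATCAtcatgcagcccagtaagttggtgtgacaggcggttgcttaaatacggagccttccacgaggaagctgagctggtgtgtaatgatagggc
Trib3: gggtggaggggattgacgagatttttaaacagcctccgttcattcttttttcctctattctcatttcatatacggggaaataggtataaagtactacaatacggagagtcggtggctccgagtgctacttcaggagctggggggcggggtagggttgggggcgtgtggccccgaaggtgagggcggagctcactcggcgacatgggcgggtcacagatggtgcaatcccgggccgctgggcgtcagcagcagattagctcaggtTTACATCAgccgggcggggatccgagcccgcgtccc
Asns: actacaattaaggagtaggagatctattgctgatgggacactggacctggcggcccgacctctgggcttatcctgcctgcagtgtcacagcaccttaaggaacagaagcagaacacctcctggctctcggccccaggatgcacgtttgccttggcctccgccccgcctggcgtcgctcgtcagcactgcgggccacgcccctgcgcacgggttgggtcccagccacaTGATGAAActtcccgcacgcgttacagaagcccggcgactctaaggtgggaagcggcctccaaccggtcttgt

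Of 27 genes of glycolysis and hypoxia, 12 fell and 0 rose (44.4%, against 8.91% of all genes lower), with a median of -0.46. Eno2, an enolase gene, measured 7.95 (ATRA) and 9.72 (BMS753) at 48 h, against 10.18 (ATRA) and 10.34 (BMS753) at 24 h, a step of -1.43 ± 0.24 (adjusted p = 0.00121). The phosphofructokinase gene Pfkp fell by 1.18, Egln3, an oxygen-sensing prolyl hydroxylase gene, by 0.92, Pdk1 by 0.90, Ndrg1 by 0.86, the lactate exporter gene Slc16a3 by 0.73 and the hexokinase gene Hk2 by 0.71. The median step of the list was -0.79 with ATRA and -0.12 with BMS753, against -0.02 and 0.02 for all genes. In the ATF4 list it was -1.02 with ATRA and -0.41 with BMS753. Oxygen and cell density at each time are not given in the labels, and their part in these values was not tested.

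**Figure D5:**
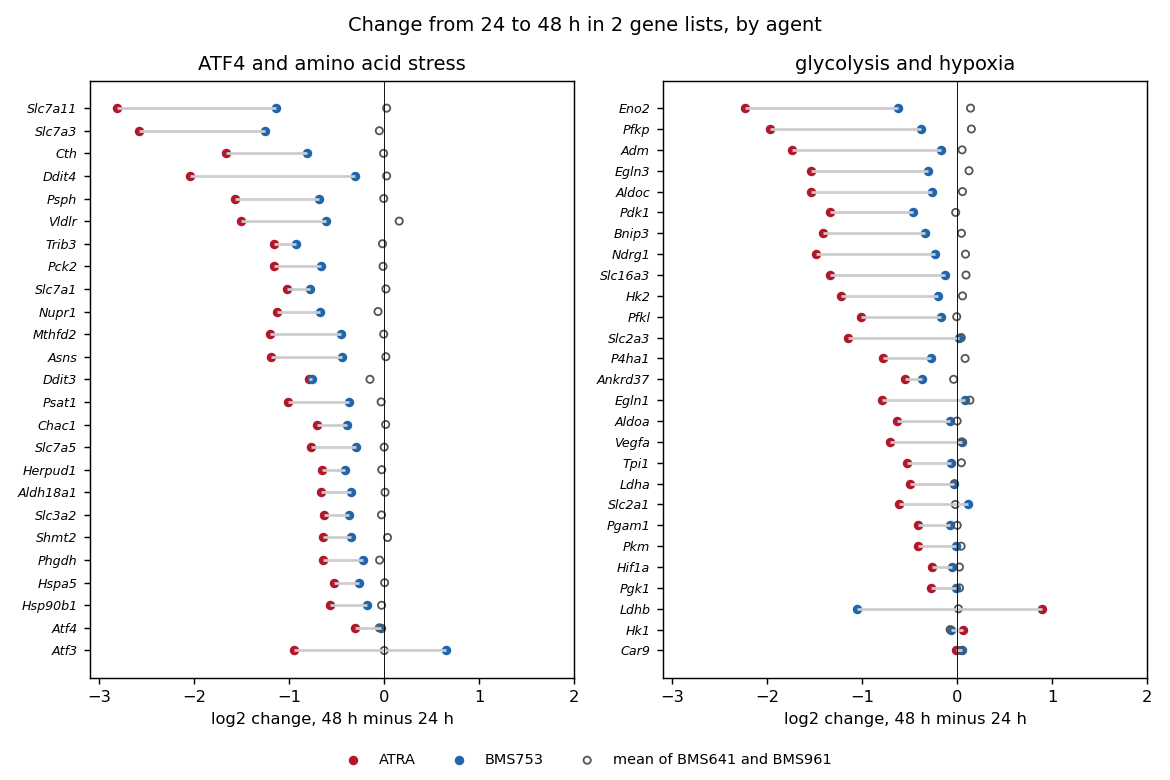
Change of each gene between 24 and 48 h (x axis, log2, 48 h minus 24 h) for the ATF4 and amino acid stress list (left) and the glycolysis and hypoxia list (right), red for ATRA, blue for BMS753 and open circles for the mean of BMS641 and BMS961. The ATRA point lies left of the BMS753 point for every gene of the ATF4 list, and the open circles lie near 0.

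Among 25 polycomb and DNA methylation genes, 6 rose and 9 fell (60% called, against 17.1% of all genes), with a median of -0.12. Cbx7, the polycomb subunit of undifferentiated cells, measured 7.93 (ATRA) and 8.98 (BMS753) at 48 h, against 9.56 (ATRA) and 9.92 (BMS753) at 24 h, and fell by 1.28 ± 0.11, while the alternative subunit gene Cbx2 rose by 0.63 ± 0.08 and Bmi1 by 0.64 ± 0.12. Dnmt3a, a de novo methyltransferase gene, fell by 1.26, and of the genes for enzymes that oxidize methylcytosine, Tet2 fell by 0.84, Tet1 fell by 0.43 and Tet3 rose by 0.55. Jarid2 fell by 0.82, Phf19 by 0.81, Ezh1 by 0.65 and Suz12 by 0.38, and Ezh2 rose by 0.12.

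Of the cell cycle genes, 26 of 38 were not called, 7 rose and 5 fell (31.6% called, against 17.1% of all genes), with a median of -0.02. Ccnd2, the cyclin D2 gene, showed the largest of these rises. It measured 11.80 (ATRA) and 10.94 (BMS753) at 48 h, against 10.08 (ATRA) and 9.46 (BMS753) at 24 h, and rose by 1.60 ± 0.20. The mitotic gene Cdc20 fell by 0.49 and Bub1 by 0.46. Of 20 genes of p53 and apoptosis, 3 rose and 7 fell (50% called), Perp by 0.84, Trp53inp1 by 0.77, Ccng1 by 0.70 and Mdm2 by 0.44 among them, and Gadd45a rose by 0.78. In cholesterol synthesis 2 of 20 rose and 0 fell (10%). Of 18 immediate early and stress genes, 1 rose and 3 fell (22.2%), among them the heme oxygenase gene Hmox1 by 1.25. Of 11 housekeeping genes, 9 were not called (18.2% called), and Hprt fell by 1.22 ± 0.13 and the transferrin receptor gene Tfrc by 0.75 ± 0.14.

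Further large changes were these. Nr2f1, the orphan receptor gene COUP-TFI, measured 10.33 (ATRA) and 7.42 (BMS753) at 48 h, against 5.77 (ATRA) and 5.44 (BMS753) at 24 h. Its step of 3.27 ± 0.38 (9.65-fold, adjusted p = 8.95e-05) began near the EtOH mean of 5.31. The growth factor gene Ptn rose by 2.54 ± 0.16, the binding protein gene Igfbp5 by 2.72 ± 0.44, the proteoglycan gene Vcan by 2.61 ± 0.37 and the nuclear factor gene Dach1 by 2.59 ± 0.24. Cxcl15, a chemokine gene, measured 9.59 (ATRA) and 4.22 (BMS753) at 48 h, against 4.11 (ATRA) and 4.16 (BMS753) at 24 h, and its mean step of 2.77 ± 0.78 (adjusted p = 0.0266) holds a rise called in ATRA's own step and none in that of BMS753.

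Some of the genes that fell had stood above EtOH at 24 h. Glra2, a glycine receptor subunit gene, measured 4.68 (ATRA) and 5.39 (BMS753) at 48 h, against 9.52 (ATRA) and 7.86 (BMS753) at 24 h, with an EtOH mean of 4.29. Its step was -3.66 ± 0.37 (12.6-fold, adjusted p = 3.4e-05). Tal2, a helix-loop-helix factor gene, measured 4.62 (ATRA) and 6.19 (BMS753) at 48 h, against 8.94 (ATRA) and 7.89 (BMS753) at 24 h, with an EtOH mean of 4.40. The deubiquitinase gene Stambpl1 and Dcaf12l1 had likewise been above EtOH at 24 h, and fell by 2.37 and 2.36. At 24 h of BMS641 and BMS961, Dcaf12l1 (8.94 and 9.03, EtOH mean 8.14) and Glra2 (4.68 and 4.83) were above their EtOH means too. Gch1, the first enzyme of tetrahydrobiopterin synthesis, fell by 2.32, Niban1 by 2.28 and the ectonucleotidase gene Enpp3 by 2.24. These were below their EtOH means at both times with each agent. The matrix gene Spon1 fell by 2.33.

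Position against EtOH was counted for all genes called with at least 2-fold change. The counts are a description, since the 24 and 48 h arrays chose these genes. They were not made for the other genes, so how often any gene lies outside the EtOH range was not tested. Of the 250 that fell, 66 had both 24 h arrays above the range of the 4 EtOH arrays, 99 had both below it and 85 had neither. At 48 h, 215 of the 250 had both arrays below the EtOH range. Of the 230 that rose, 98 had both 24 h arrays above the EtOH range, 21 had both below it and 111 had neither, and at 48 h 221 had both above it.

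ATRA and BMS753 were compared at the same dose and times, 1 pair of agents. The test sets the ATRA step minus the BMS753 step against the spread of the 4 EtOH arrays, and assumes that each lone array varies as those do. It called 2494 genes (12.5%), 1236 with a higher value for ATRA (6.2%) and 1258 with a lower one (6.31%). Within each agent, the same fit called 5392 genes with ATRA (27%, 13.2% higher and 13.8% lower) and 3054 with BMS753 (15.3%, 6.84% higher and 8.48% lower). Of all 19938 genes, 822 rose and 1089 fell with both, 232 were called in opposite directions and 13635 were called with neither. Changes of at least 2-fold numbered 851 of the 19938 genes with ATRA and 460 with BMS753.

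The step of Cxcl15 was 5.42 ± 0.15 log2 units larger with ATRA (95% interval 5.10 to 5.74, adjusted p = 9.9e-11). Lgr5 differed by 3.39 ± 0.17 and Hoxc6, which measured 8.72 (ATRA) and 5.13 (BMS753) at 48 h, against 5.03 (ATRA) and 4.58 (BMS753) at 24 h, by 3.14 ± 0.21. The collagen gene Col12a1 (3.08), the imprinted zinc-finger gene Zim1 (3.05), the kinase gene Tec (2.97) and the lipid phosphatase gene Plpp3 (2.86) followed. At 72 h the BMS753 array measured 8.62 for Lgr5, 7.36 for Hoxc6 and 7.30 for Col12a1, each above its 48 h array.

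In the other direction, Plxna2 and Crabp2 were within 1 log2 unit of EtOH at 24 h of BMS753 and over 3 units above it at 24 h of ATRA. Plxna2, a semaphorin co-receptor gene, measured 11.55 (ATRA) and 11.11 (BMS753) at 48 h, against 11.29 (ATRA) and 7.50 (BMS753) at 24 h, a difference in step of -3.35 ± 0.15. Crabp2 differed by -3.11 ± 0.13. For both, the agents stood within 0.5 log2 units of each other at 48 h. Lefty1 differed by -3.34 ± 0.13 through a larger fall with ATRA.

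Other genes were called in opposite directions in the agents' own steps. Grifin, a galectin-related gene, measured 7.87 (ATRA) and 9.99 (BMS753) at 48 h, against 9.29 (ATRA) and 7.00 (BMS753) at 24 h, a difference of -4.41 ± 0.19. Glra1, another glycine receptor subunit gene, measured 6.74 (ATRA) and 8.14 (BMS753) at 48 h, against 9.22 (ATRA) and 6.46 (BMS753) at 24 h, a difference of -4.16 ± 0.20. Both fell with ATRA from a level over 2 log2 units above EtOH and rose with BMS753. The gene ccdc198 (-3.75), the formin gene Fhdc1 (-3.57), the GABA receptor subunit gene Gabrg1 (-3.31) and Prxl2a (-3.09) were also called lower with ATRA and higher with BMS753. Tmem98 was called the other way, higher with ATRA (1.12) and lower with BMS753 (-1.81), a difference of 2.93. It measured 9.05 (ATRA) and 6.96 (BMS753) at 48 h, against 7.93 (ATRA) and 8.77 (BMS753) at 24 h, with an EtOH mean of 9.40.

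By list, the ATRA step was lower than the BMS753 step in 22 of 27 glycolysis and hypoxia genes and higher in 1, Ldhb, and lower in 18 of 25 ATF4 genes with 0 higher, against 6.31% of all genes lower. Slc7a11 differed by -1.68 ± 0.11 and Eno2 by -1.61 ± 0.13. Ldhb measured 10.60 (ATRA) and 8.96 (BMS753) at 48 h, against 9.70 (ATRA) and 10.01 (BMS753) at 24 h, a difference of 1.95 ± 0.12. In the pluripotency list 12 of 35 were lower and 5 higher with ATRA, Utf1 by -3.01, Tdgf1 by -2.46 and Pou5f1 by -2.43 ± 0.09. In axon guidance, 14 of 38 were lower and 3 higher with ATRA. For 3 genes with large steps and no call of a difference the intervals included 0: Stra6 differed by 0.03 (95% interval -0.30 to 0.35), Cdh6 by -0.09 (-0.49 to 0.31) and Niban1 by -0.08 (-0.44 to 0.28).

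With the 0.1 µM agents, the same step called 0 genes (0%) in the limma fit, with 442 at an unadjusted p under 0.05, and no gene changed 2-fold with BMS641 or with BMS961. The fit gives each gene 1 error for both doses, which includes the departure of ATRA and BMS753 from each other. For Pou5f1 the SE was 0.45 in both steps. The 0 therefore does not show that no gene changed at 0.1 µM. The 1 µM step differed from the 0.1 µM step in 1205 genes (6.04%), 474 with a higher value (2.38%) and 731 with a lower one (3.67%). Dose and agent differ together here and cannot be told apart. This count was 2621 without the ATRA 72 h array, an alternative chosen after seeing the data, and 179 or 163 when either 0.1 µM pair was left out. Nr2f1 differed by 3.32 ± 0.54 (adjusted p = 0.00337), Crabp1 by 3.14 ± 0.43, Wnt1 by 3.13 ± 0.67, Lgr5 by 2.91 ± 0.79, Ednrb by 2.83 ± 0.63 and Igfbp5 by 2.72 ± 0.62. Glra2 differed by -3.86 ± 0.52, Nr0b1 by -3.77 ± 0.39, Tdgf1 by -3.48 ± 0.76, Tal2 by -3.12 ± 0.65, Utf1 by -2.89 ± 0.62 and Pou5f1 by -2.52 ± 0.64 (adjusted p = 0.0355). Of these 12 genes, 9 were no longer called when either 0.1 µM pair was left out, and 5 with 1 agent offset over all times. The difference between 48 and 24 h for Pou5f1 was -3.78 with ATRA and -1.36 with BMS753, against -0.01 with BMS641 and -0.09 with BMS961.

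From 48 to 72 h, 818 genes were called higher and 690 lower with the 1 µM agents (4.1% and 3.46%, together 7.56% of all). That step shares its 48 h arrays with the one above, so its values are given side by side only. Pou5f1 measured 12.41, 8.63 and 5.45 at 24, 48 and 72 h of ATRA and 12.79, 11.44 and 8.88 with BMS753, and its next step was -2.86 ± 0.45. Cdh1 fell by 1.59 and Esrp1 by 2.01 from 48 to 72 h. Aldh1a2 measured 5.52, 6.28 and 10.21 at 24, 48 and 72 h of ATRA and 5.03, 6.43 and 8.22 with BMS753. Bmp4 rose again, by 1.63, and Nrp1 by 1.71. Wnt1 measured 6.09, 8.69 and 6.96 at 24, 48 and 72 h of ATRA and 5.68, 9.37 and 9.82 with BMS753, and its next step of -0.64 was not called. Slc7a11 measured 10.32, 7.50 and 7.36 at 24, 48 and 72 h of ATRA, and its next step of -0.11 was not called. In the ATF4 list, 6 of 25 rose from 48 to 72 h and 0 fell, and in the glycolysis and hypoxia list 10 of 27 fell and 0 rose.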

How the data were processed

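The authors deposited log2 intensities for 35556 probe sets, made with Affymetrix Expression Console 1.1 per the submitters' processing notes. Background correction, summarization and normalization are not given in the sources used here, and the log2 scale was judged from the range of 2.859 to 14.3. Array medians were 6.502 to 6.677. In the platform annotation 21789 probe sets had 1 gene symbol, 1621 several, and 12146 are unnamed here. Where a gene had several probe sets (999 genes), that with the highest mean was used. All 19938 genes were kept whatever their signal. Precision is limited by how many arrays there are.

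The step was tested with limma 3.58.1 (R 4.3.3; lmFit, then eBayes with trend=TRUE) on all 24 arrays, with a mean for EtOH, a mean per dose and time, and an agent offset within each dose for 2 to 6 h and for 24 to 72 h. Residual degrees of freedom were 9, with 3.86 from the prior. The spread thus combines EtOH arrays and the departure of agents of 1 dose from a shared course. The contrast of doses came from the same fit. ATRA minus BMS753 and each agent's own step came from a fit with 1 mean per agent and time, whose 3 residual degrees of freedom are those of EtOH (prior 10.3). Tests were two-sided, with Benjamini-Hochberg adjustment over all genes and a threshold of 0.05. The code was tested on simulated data.

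The members and the 26 gene lists (715 genes) were chosen with earlier results of these data known. Named genes were the 12 largest called rises and falls with 1 sign in both agents, the 6 largest each way between doses, the 8 largest each way between agents, up to 6 called in opposite directions, list members and the markers Pou5f1, Meis1 and Actc1, passing over predicted transcripts, small RNAs and olfactory or vomeronasal receptors. Alternatives changed the filter, normalization, probe set rule, moderation, fold threshold, arrays and agent terms. Leaving out the ATRA 72 h array was chosen after seeing the data.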

Additional observations from a re-analysis of the deposited data

Results flagged for a closer look

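The steps of ATRA and BMS753 differed in 2494 genes by the test of the difference itself. The larger values with ATRA were those of Cxcl15 (5.42 log2 units), Lgr5 (3.39), Hoxc6 (3.14), Col12a1 (3.08), Zim1 (3.05), Tec (2.97), Tmem98 (2.93) and Plpp3 (2.86). The lower ones were those of Grifin (-4.41), Glra1 (-4.16), ccdc198 (-3.75), Fhdc1 (-3.57), Plxna2 (-3.35), Lefty1 (-3.34), Gabrg1 (-3.31), Crabp2 (-3.11) and Prxl2a (-3.09).

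The steps of the 1 µM and the 0.1 µM agents differed in 1205 genes. Values were higher at 1 µM for Nr2f1 (3.32), Crabp1 (3.14), Wnt1 (3.13), Lgr5 (2.91), Ednrb (2.83) and Igfbp5 (2.72), and lower for Glra2 (-3.86), Nr0b1 (-3.77), Tdgf1 (-3.48), Tal2 (-3.12), Utf1 (-2.89) and Pou5f1 (-2.52).

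One EtOH array lay apart from the other 3 for Fhdc1: replicate 1 measured 6.329, against 6.526 to 6.562. It was the 1 such gene of 41 checked, and chance alone gives about 1 in 20.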

How the results depend on the processing

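Of the 3408 genes called in the step, 480 changed at least 2-fold. The count was 0 from the 4 arrays alone (2740 at an unadjusted p under 0.05), 2068 from the 1 µM and EtOH arrays only and 5640 where EtOH arrays alone set the error. Leaving out 1 EtOH array or 1 agent's pair gave 3014 to 5951, the highest without the BMS753 pair. The other alternatives gave 2485 (no agent term) to 4877 (without the ATRA 72 h array). Of 224 called genes named for the step, 60 were no longer called with no agent term, 45 with the 1 µM and EtOH arrays only, 30 with 1 agent offset over all times, 30 without the ATRA pair, 7 without the BMS753 pair, 13 to 16 without 1 EtOH array and 224 in the 4 arrays alone. Ntn1 was the 1 of them that reversed: its step was -0.0056 without the BMS753 pair and 1.86 without the ATRA pair, so its rise was that of BMS753.

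Of the 1205 genes that differed between doses, 330 differed by 2-fold or more. Leaving out the ATRA 72 h array gave 2621, taking the error from EtOH arrays alone gave 3760, and the count was 709 with 1 agent offset over all times. Leaving out 1 EtOH array or 1 agent's 0.1 µM pair gave 163 to 1010, the lowest without BMS961 and 179 without BMS641. Of the 2494 genes that differed between ATRA and BMS753, 614 differed at least 2-fold, leaving out 1 EtOH array gave 1942 to 3160, and the other alternatives gave 1985 to 2683. The causes of these shifts were not tested. The step is paired by agent, and the fit with no agent term is the unpaired one. With 1 array per agent and time, a difference between agents cannot be told apart from one between single arrays.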
